A study of Mus musculus with 6 samples.

Results

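The cells described here are venous-side capillary endothelial cells of the mouse brain, 3524 of the 30586 cell barcodes in the series and of the 22474 that passed as endothelial. A barcode was taken if it had at least 1000 UMIs (unique molecular identifiers, each standing for 1 captured transcript molecule) and at most 15% mitochondrial UMIs. It also had to hold at least 3 of the endothelial genes Pecam1, Cdh5, Flt1, Ly6c1 and Esam, and at most 2 UMIs over the pericyte, smooth muscle and microglial genes Vtn, Rgs5, Acta2, Tagln, C1qa and Ctss. At least 3 of the 6 venous-side capillary markers Ndnf, F5, Flrt2, Wnt5a, Slc38a5 and Lmntd1 had to be detected. At most 2 were allowed of the venular genes Ackr1, Adgrg6, Lrg1, Vwf, Col6a6 and Ch25h, and at most 2 of the arterial genes Gkn3, Bmx, Sema3g, Hey1, Efnb2 and Stmn2. Cells with a UMI of Apln, a tip-cell gene, or of Plvap, a gene of fenestrated vessels, were left out. The members were thus chosen by these detections and UMI limits, and the levels of the rule's genes are given as a description with no test.

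Brain capillaries are a continuum along the flow of blood, from arterioles through capillaries to venules, and their endothelial cells change gene expression gradually along it. Capillary cells hold most transport proteins of the blood-brain barrier, while venules are the usual site of leukocyte adhesion, through molecules such as ICAM1 and VCAM1. Venous-side capillary cells lie between these segments. Claudin-5, encoded by Cldn5, forms the sealing strands of endothelial tight junctions, which limit passage of small molecules between neighbouring cells.

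All mice were C57Bl6 with floxed Cldn5 alleles (Cldn5 fl/fl) and a YFP reporter at R26 (R26 YFP/YFP). The 3 iECKO libraries came from mice that also carried Cdh5-creERT2+, a tamoxifen-inducible Cre recombinase expressed from the endothelial Cdh5 promoter. The 3 control libraries came from mice without it. Both groups had tamoxifen by gavage, 100 µl of 20 mg/ml on 3 days, at about 3 months of age. Vessel fragments were pulled out with beads against PECAM1, a surface protein of endothelial cells, and sequenced by droplet single-cell RNA-seq of transcript 3′ ends. Whether each library stands for a separate animal is not stated in the labels, and p-values here cover only library-to-library spread, which may be in part technical. The series title calls the deletion mosaic, and the YFP feature held 0 UMIs in the members of every library, so recombined cells could not be marked by it. The libraries held 15727366 to 49350802 UMIs over 2714 to 7420 barcodes. Of 30490 distinct barcode sequences 96 were in more than 1 library. Both replicate 2 libraries came from female tissue, with Xist at 845 and 939 CPM (UMIs of a gene scaled to a common total per library) in the members and at most 0.439 CPM in the others. The share of members' UMIs on Gm42418, a predicted gene overlapping ribosomal RNA sequence, was 6.65%, 17.9% and 2.5% in control 1 to 3, against 6.72%, 16.3% and 2.64% in the iECKO libraries. Sex and this share therefore followed the replicate number and not the group.

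There were 801, 767 and 715 members in the control libraries 1 to 3, and 402, 251 and 588 in the iECKO libraries 1 to 3. Their median depth was 6536, 6022 and 7574 UMIs in the controls and 8464, 7813 and 9249 in iECKO. Median mitochondrial percentages were 4.06, 3.94 and 3.45 in the controls and 4.34, 4.31 and 4.79 in iECKO, so all iECKO libraries lay above all controls. No barcode sequence was shared among members, and 23 members carried a sequence that another library also held. Detection of the 6 markers varied: in control 1, Slc38a5, a glutamine transporter, was found in 91.6% of members, Ndnf, a secreted protein, in 90.1%, and Flrt2, a guidance and adhesion protein, in 70.7%. Wnt5a, a secreted Wnt ligand, was found in 52.9%, Lmntd1 in 40.3% and F5, coagulation factor V, in 32.7%. Of the allowed venular genes, Vwf, which encodes the von Willebrand factor, was found in 66.7%, 71.1% and 65.6% of control members and 82.3%, 79.7% and 67.7% of iECKO members, while Ackr1, which marks larger venules, was found in at most 1.49%. Most members sat near the rule's threshold: 1633 (46.3%) held exactly 3 markers, 1054 (29.9%) held 4, 614 (17.4%) held 5 and 223 (6.33%) held all 6. Just outside it, 723, 686 and 480 control cells and 394, 216 and 498 iECKO cells met the other conditions with 2 markers. Cells with more markers were also deeper: in control 1 the median rose from 2885 UMIs with 0 markers to 4886 with 3 and 14920 with 6.

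The rule took 17.2%, 15.6% and 22.2% of endothelial cells in the controls, against 8.42%, 13.9% and 19.0% in the iECKO libraries. With every endothelial cell thinned to 2000 UMIs, it took 6.13%, 7.87% and 10.8% in the controls and 2.04%, 6.08% and 6.60% in iECKO. Means were 8.28% ± 2.38 and 4.91% ± 2.5 (SD, n = 3), with overlapping libraries (two-sided exact permutation p = 0.2, or 0.25 adjusted over the 4 share tests made here). Within pairs of the same replicate number the iECKO share was lower in 3 of 3, thinned or not (exact permutation p = 0.25, the lowest 3 pairs allow). With at least 2 of the 6 markers in place of 3, the iECKO share differed by -8.30 points (two-sided exact permutation p = 0.1, unadjusted). That p is the smallest for 3 against 3, and this alternative is not among the 4 adjusted tests. All these shares count detections of the rule's own markers, so they describe what the rule takes. The markers themselves stood lower in some iECKO libraries. Slc38a5 was at 476, 434 and 431 CPM in control members, against 280, 296 and 315 CPM in iECKO members, without overlap. Ndnf was at 473, 604 and 632 CPM in the controls and at 242, 521 and 437 CPM in iECKO, with overlap. Fewer cells of this kind and less marker RNA per cell cannot be told apart from these shares.

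Markers of other cell types in the members were mostly low. Summed over their lists they stood at 14.6 to 33.8 CPM for pericytes (10 genes), 15.8 to 41.0 for smooth muscle (7), 34.9 to 47.9 for microglia (10), 5.21 to 22.3 for oligodendrocytes (7), 10.3 to 31.4 for neurons (6), 0.451 to 34.1 for fibroblasts (7) and 0.901 to 12.1 for T, NK and B cells (7). Erythrocyte genes (5, mainly haemoglobins) stood at 7960, 5270 and 7490 CPM in the controls and 4900, 1560 and 7010 in iECKO. Genes of choroid plexus and ependyma (6, among them Ttr and Enpp2) stood at 73.7, 2120 and 105 CPM and at 856, 164 and 8610. The 8 astrocyte genes stood at 45.8, 48.0 and 62.0 CPM in the controls and 117, 82.4 and 79.8 in iECKO, and most of that was Gja1. Without Gja1 they were at 14.1, 14.2 and 23.9 CPM and at 27.3, 8.56 and 21.4, which overlap. The part of these markers in the results below was not tested.

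The place of the cells along the vessel was first described in the controls, against mid-capillary cells (8458, endothelial, with at most 1 marker of each of the 3 zones) and venular cells (1189, with at least 3 venular genes). All 3 zones were cut from the same libraries by the rule's genes, so genes that vary with them had to differ, and the values are a description. Because detecting 3 markers picks deep cells, only cells of 2000 to 8000 UMIs were compared, and UMIs were summed per library and zone. Against mid-capillary cells, the members held more RNA of genes known from veins. Vcam1, a leukocyte adhesion molecule, stood at 87.9, 117 and 85.1 CPM in the members of the controls, against 20.4, 18.4 and 9.36 CPM in mid-capillary cells, a log2 difference of 2.57 ± 0.12 (SE). Nr2f2, the transcription factor that specifies veins, stood at 87.4, 88.9 and 97.2 CPM against 20.8, 26.1 and 23.2 (1.98 ± 0.11). Il1r1, the interleukin-1 receptor, was at 93.0, 71.9 and 55.6 against 16.2, 16.2 and 11.8 (2.34 ± 0.12). In each of these 3 genes every library's members lay above every library's mid-capillary cells. Tmsb10, a small actin-binding peptide, was at 3906, 1246 and 1934 CPM against 1747, 588 and 771 (1.21 ± 0.04), higher in each library although the libraries themselves differed widely. The other larger differences were Myof (1.84 ± 0.12), Hs3st1 (1.46 ± 0.09), Unc13c (1.46 ± 0.12), Car14 (1.40 ± 0.11), Prcp (1.32 ± 0.11), Ctsc (1.31 ± 0.07) and Fam13a (1.29 ± 0.10).

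Among the genes lower in the members were some of the arterial end. Unc5b, a netrin receptor of arterial and tip cells, stood at 7.44, 12.7 and 14.0 CPM in the members and at 70.2, 73.1 and 96.3 CPM in mid-capillary cells (-2.79 ± 0.14). Alpl, an alkaline phosphatase of arterial and capillary endothelium, was at 19.5, 26.3 and 21.3 CPM against 116, 148 and 103 (-2.44 ± 0.11). Cxcl12, a chemokine, was at 949, 1555 and 1350 CPM against 3770, 4182 and 4442 (-1.69 ± 0.15). Slc26a10 (-2.74 ± 0.15), Tcim (-2.64 ± 0.15), Rad54b (-2.14 ± 0.15), Rsad2 (-1.42 ± 0.10), Apold1 (-1.40 ± 0.06), Gadd45g (-1.37 ± 0.09), Cdk19 (-1.37 ± 0.09), Adamts1 (-1.35 ± 0.06) and Cald1 (-1.33 ± 0.10) followed. In control 2 and 3, Slc26a10, Rad54b, Rsad2, Cdk19 and Cald1 were lower still in venular cells. Tcim, Apold1, Gadd45g and Adamts1 were higher there than in the members, Gadd45g at 385 and 297 against 40.0 and 38.2 CPM. Of 10066 genes tested, 5.93% were called higher and 6.38% lower in the members (edgeR, adjusted p under 0.05). Of 19 venous identity genes outside the rule, 15 were called higher and 1 lower (median log2 difference 1.05, against -0.01 over all genes). The exception was Emcn, the venous and capillary mucin endomucin, at 489, 442 and 344 CPM against 684, 633 and 509 (-0.50 ± 0.05). The venous list also holds Car4, at 1339, 1028 and 1043 CPM in the members against 722, 508 and 535. Car4 is in the mid-capillary list as well, and its level was far lower in venular cells, as given below. Of 17 arterial identity genes 0 were higher and 11 lower (median -0.49), among them Glul, glutamine synthetase (-1.15 ± 0.04).

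Barrier transport genes leaned to the members, with 15 of 29 called higher and 4 lower. Slc16a1, the monocarboxylate transporter for lactate and ketone bodies, was at 782, 1422 and 1345 CPM against 487, 772 and 776 (0.81 ± 0.04). Tfrc, the transferrin receptor, was at 556, 723 and 560 CPM against 381, 542 and 390 (0.51 ± 0.05), and Slc40a1, the iron exporter ferroportin, at 582, 696 and 686 against 344, 449 and 454 (0.68 ± 0.05). Mfsd2a, the lipid transporter of capillaries, was lower, at 318, 269 and 243 CPM against 427, 364 and 306 (-0.38 ± 0.05). All 14 MHC class I genes were tested, and 7 were higher and 0 lower. Of 21 Wnt receptors and targets 5 were higher, including Apcdd1 (0.53 ± 0.05) and Nkd1 (0.60 ± 0.06), both feedback inhibitors of Wnt signalling, and 1 was lower. Of 23 basement membrane and matrix genes 1 was higher, Fn1, fibronectin (0.71 ± 0.04), and 11 lower, such as Timp3, an inhibitor of metalloproteinases (-0.97 ± 0.05). Of 26 immediate-early and heat-shock genes 1 was higher and 12 were lower. Cldn5 itself was at 5891, 4936 and 5649 CPM in the members and 4947, 4279 and 4601 in mid-capillary cells (0.27 ± 0.03).

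**Figure D1:**
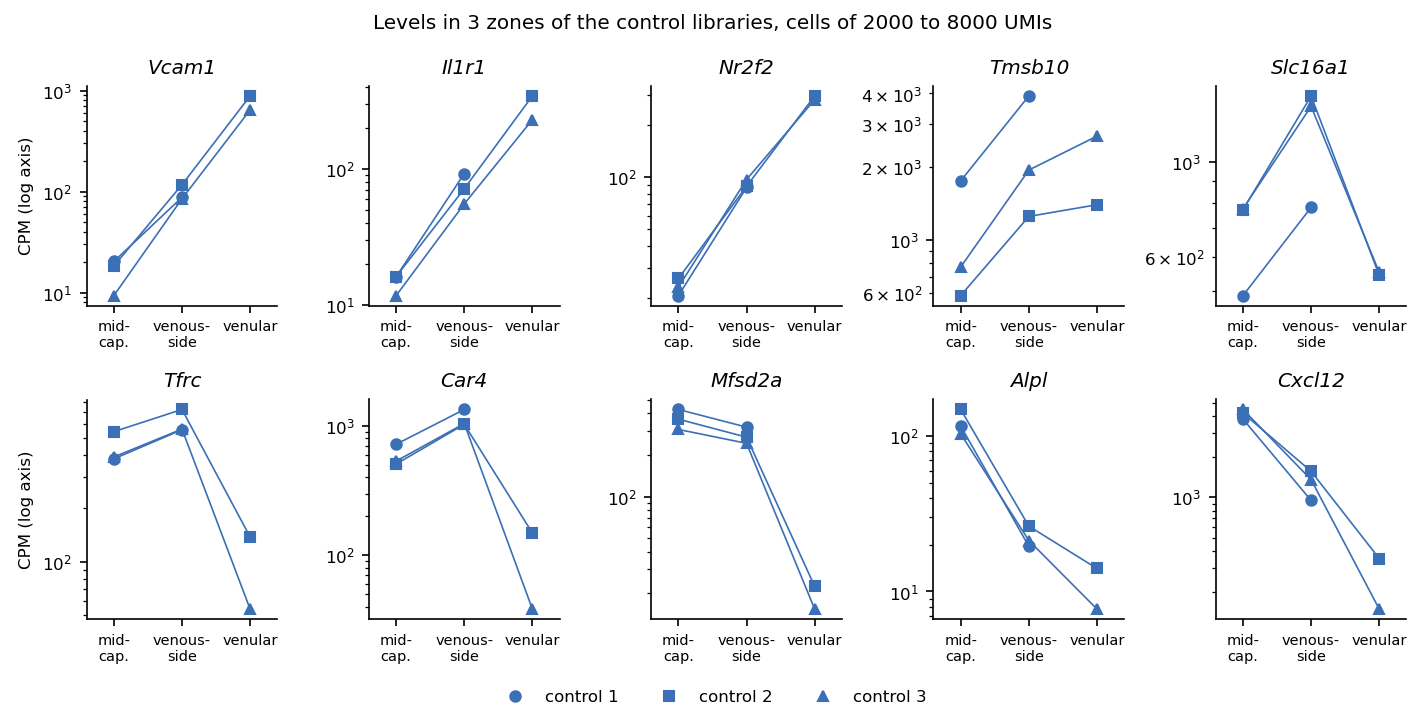
Levels of 10 genes in the 3 control libraries, as CPM on log axes, in mid-capillary, venous-side and venular cells of 2000 to 8000 UMIs, with each line joining the zones of 1 library. Vcam1, Il1r1, Nr2f2 and Tmsb10 rise towards the venules, Alpl and Cxcl12 are lower in venous-side than in mid-capillary cells, and Tfrc, Car4 and Mfsd2a drop between venous-side and venular cells. Control 1 had 19 venular cells in this depth range and is not shown there.

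Against venular cells the members stood apart by their capillary genes. This comparison rests on control 2 and 3, since control 1 had only 19 venular cells in the depth range, under the 20 required, and no library could be left out of it. Mfsd2a stood at 269 and 243 CPM in the members of control 2 and 3 and at 22.5 and 15.4 CPM in venular cells (3.66 ± 0.26). Car4, a membrane-bound carbonic anhydrase of capillaries, was at 1028 and 1043 CPM against 149 and 38.5 (3.32 ± 0.25), and Tfrc at 723 and 560 against 138 and 54.0 (2.65 ± 0.19). Lrp8, a lipoprotein receptor, was at 264 and 188 CPM against 28.1 and 11.6 (3.40 ± 0.26). Hmcn1 (3.49 ± 0.20), Slc1a1 (3.17 ± 0.29), Lrrn3 (4.14 ± 0.40) and Spock2 (2.41 ± 0.16) were also higher, and Unc13c, Rasgrp2 and Car5a, each at 0 UMIs in the venular cells of 1 library, were at 54.1 to 69.6 CPM in the members.

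Of 8723 genes tested, 3.71% were called higher and 5.12% lower in the members than in venular cells. Barrier transporters gave 19 of 29 higher and 2 lower (median 0.82), Wnt genes 11 of 21 higher and 0 lower (median 0.70), and matrix genes 12 of 22 higher and 1 lower (median 0.73). Apcdd1 was at 649 and 624 CPM against 112 and 127 (2.36 ± 0.16) and Reck, a cofactor of Wnt7 reception, at 135 and 82.7 against 36.6 and 11.6 (2.07 ± 0.29). Genes of leukocyte adhesion and activation gave 1 of 20 higher and 10 lower (median -0.68), and MHC class I genes 0 higher and 7 lower of 14 (median -0.63). Vcam1 was at 117 and 85.1 CPM in the members and 886 and 644 CPM in venular cells (-2.98 ± 0.13), so the members lay between both neighbours. Il1r1 (-2.24 ± 0.16), Nrp2, the coreceptor of venous and lymphatic endothelium (-2.23 ± 0.14), and Myof (-2.47 ± 0.14) showed the same intermediate place. Ptgs2, the inducible cyclooxygenase (20.7 and 17.9 against 222 and 193 CPM, -3.48 ± 0.20), and Tmem252 (148 and 162 against 833 and 918 CPM, -2.56 ± 0.12) were lower in the members, as were Tmem176a (-3.18 ± 0.19), Gadd45g (-3.19 ± 0.16), Pla2g4a (-2.58 ± 0.18), Cebpb (-2.58 ± 0.28), Mgst1 (-2.33 ± 0.24), H2-Q6 (-2.75 ± 0.27), Mgp (-3.50 ± 0.30) and Apoe (-1.51 ± 0.13). By genes outside the rule, the members held more venous RNA than mid-capillary cells and more RNA of capillary transport genes than venular cells. Since zonation genes chose all 3 zones, this describes the members and does not test their label.

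How far Cldn5 had been lost in these cells was then examined. The gene (ENSMUSG00000041378) is on the plus strand of chromosome 16, bases 18776847 to 18778262 of GRCm38. Cldn5 stood at 5973, 5178 and 5822 CPM in control members, against 3854, 2950 and 3504 CPM in iECKO members, without overlap. The log2 difference was -0.69 ± 0.10 (SE), with an edgeR adjusted p of 0.00131 when libraries with the same replicate number were paired and 0.779 without pairing. Without the replicate 2 pair the paired value was -0.66, with an adjusted p of 0.147. The floxed part of the gene is not given in the labels, so transcript counted at its 3′ end may include RNA of recombined alleles.

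With each cell thinned to 2000 UMIs, 0.387% of members in control 1 held no Cldn5 UMI (95% exact binomial interval 0.0799% to 1.13%), 0.538% in control 2 (0.147% to 1.37%) and 0.284% in control 3 (0.0345% to 1.02%). In iECKO 1 to 3 it was 28 of 397 cells or 7.05% (4.74% to 10.0%), 22 of 249 or 8.84% (5.62% to 13.1%) and 40 of 585 or 6.84% (4.93% to 9.19%). Every iECKO library lay above every control, 7.58% ± 1.10 against 0.403% ± 0.128 (SD, n = 3). The groups were 7.17 points apart (two-sided exact permutation p = 0.1, the lowest value possible with 3 libraries in each group, or 0.25 adjusted over 4 tests). Unthinned, the shares were 0.25%, 0.391% and 0% (interval up to 0.515%) against 4.73%, 5.18% and 3.74%. Thinning left out 12 to 26 shallower members in each control and 2 to 5 in each iECKO library. Microglia, which do not make claudin-5, held no Cldn5 UMI in 73.8% to 97.2% of cells at the same depth, with median depths of 2476 to 5436 UMIs before thinning, and the remaining microglia held at least 1. By their definition these microglia held few or none of the endothelial genes, so microglia with more endothelial RNA were not counted.

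The iECKO members that kept transcript also held less of it. In members with at least 2 Cldn5 UMIs after thinning, the mean was 11.5, 9.42 and 12.9 UMIs per cell in the controls, against 8.12, 6.58 and 9.04 in iECKO, without overlap. Fewer members than mid-capillary cells lacked the transcript: among the latter, 26.6%, 26.2% and 25.4% of iECKO cells and 1.41%, 2.03% and 0.76% of control cells held no Cldn5 UMI. Within the iECKO libraries the mid-capillary share exceeded the members' by 18.5 ± 1.1 percentage points (SD, higher in 3 of 3 libraries, two-sided exact permutation p = 0.25, the smallest for 3 pairs). Venular cells had 17.3%, 11.8% and 6.88% in iECKO and 1.96%, 0% (interval up to 1.46%) and 0.49% in the controls, and their excess over the members was 4.4 ± 5.23 points. The venous-side markers that divide members from mid-capillary cells stood lower in some iECKO libraries. Their part in the difference between these zones was not tested. Members were also deeper before thinning than mid-capillary cells. In cells of 2000 to 8000 UMIs, again thinned to 2000, the members' shares were 10.6%, 15.1% and 9.31% in iECKO and 0.217%, 0.206% and 0% (interval up to 1.01%) in the controls. There the mid-capillary excess was 15.1 ± 3.04 points and the venular excess 9.94 ± 9.22 points. For Cldn5 in CPM, the difference between the log2 changes of both zones was 0.10 ± 0.06 and did not pass (edgeR adjusted p = 0.66).

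The share also moved with the number of venous-side markers in cells of that depth range. With 0 markers, 30.9%, 31.8% and 29.7% of iECKO cells held no Cldn5 UMI, with 1 marker 23.2%, 27.2% and 25.1%, and with 2 markers 12.4%, 11.9% and 14.5%. With 3 markers it was 11.5%, 12% and 13.4%, and with 4 or more 16.7%, 14.0% and 6.67%, on 66, 43 and 90 cells. In the controls it was at most 2.62% in any of these classes. The step between 1 and 2 markers was larger than that across the threshold of 3. The cells of all classes came from the same 3 libraries, so these steps were not tested. Nor was the part of the lower marker RNA in some iECKO libraries.

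**Figure D2:**
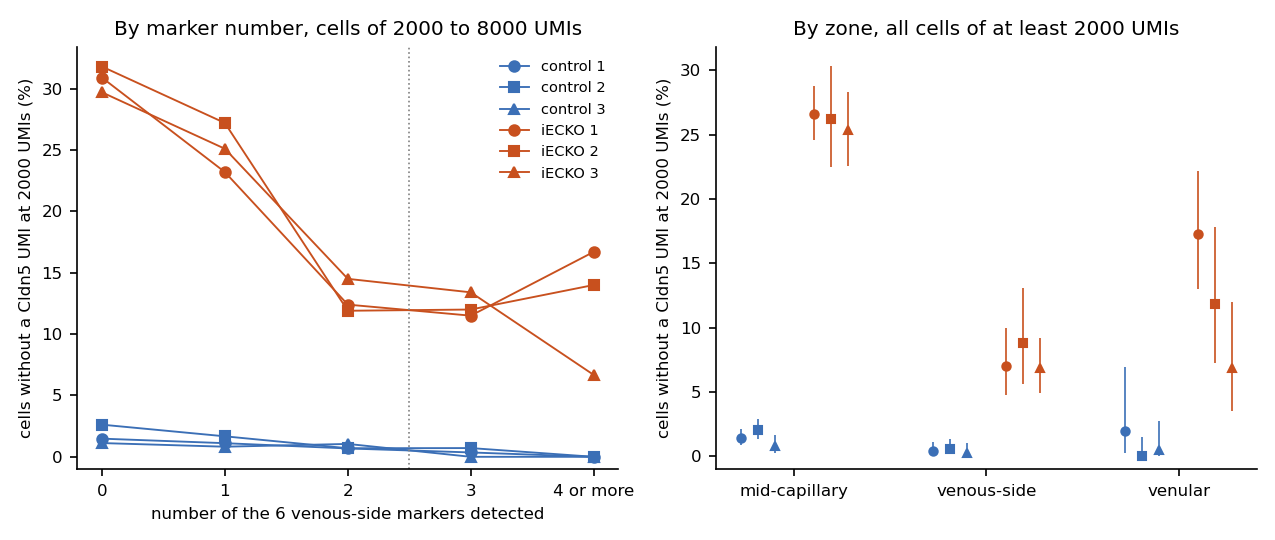
Left, percent of cells without a Cldn5 UMI at 2000 UMIs per cell against the number of venous-side markers detected, in cells of 2000 to 8000 UMIs, 1 line per library, with the threshold of the rule as a dotted line. Right, the same percent in 3 zones without the depth range, with 95% exact binomial intervals for counting error. iECKO shares are 29.7% to 31.8% with 0 markers and lie between 6.67% and 16.7% at 3 or more, and controls are at most 2.62% on the left.

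The next question was how the members' other genes differed between iECKO and control. The paired and unpaired tests gave very different counts. Without pairing, edgeR called 3 of 11212 genes higher (0.0268%) and 0 lower (0%), and 543 had an unadjusted p under 0.05. With DESeq2 the calls were 31 higher and 5 lower. The 3 were Ccnd1, Meox1 and Fscn1. Left-out libraries moved this count from 1 (without control 2 or iECKO 1) to 12 (without iECKO 3), and Meox1 lost its call without control 2, control 3 or iECKO 1 (adjusted p 0.0924, 0.0768 and 0.065). With the replicate number as a block, 142 were higher (1.27%) and 54 lower (0.482%). Without the replicate 1, 2 or 3 pair that total of 196 became 108, 47 and 318. Genes named from here on are from the paired fit.

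Ccnd1 encodes cyclin D1, which drives cells out of G1. It was at 37.6, 32.7 and 44.6 CPM in control members, against 152, 130 and 133 CPM in iECKO members. The groups were far apart, the log2 difference was 1.88 ± 0.11 (adjusted p 1.35e-07 paired and 0.0012 unpaired), and Ccnd1 was called under every alternative tried for either fit. Meox1, a homeobox gene of vascular and mesodermal cells, was at 8.56, 8.80 and 9.29 CPM against 30.5, 39.3 and 25.1 (1.83 ± 0.21 unpaired, adjusted p 0.00988). Fscn1, an actin-bundling protein named after its values were seen, was at 0.323, 0.383 and 1.59 CPM against 13.2, 9.71 and 7.75.

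Among genes of moderate to high level, Gimap6 and Gimap5 rose, which encode GTPases of the immunity-associated family. Gimap6 was at 138, 118 and 125 CPM in the controls and 367, 250 and 226 in iECKO (1.15 ± 0.11, adjusted p 5.51e-05). Gimap5 was at 32.5, 22.2 and 34.5 CPM against 96.8, 43.4 and 53.3 (1.09 ± 0.18). For both, iECKO 1 was the highest library and the groups did not overlap. Gja1, the gap junction protein connexin 43, was at 33.5, 36.9 and 34.6 CPM against 91.6, 75.8 and 53.3 (1.06 ± 0.15, adjusted p 0.00543). It is also an astrocyte gene, and the other 7 astrocyte genes overlapped between groups as given above. Tgfb1, the growth factor TGF-β1, was at 99.0, 71.9 and 71.0 CPM against 250, 119 and 106 (0.92 ± 0.14, adjusted p 0.0104). Cd93, a surface protein of endothelial cells, was at 392, 399 and 391 CPM against 915, 650 and 604 (0.88 ± 0.12, adjusted p 0.00102). The control libraries of Cd93 agreed closely and every iECKO library stood far above them. Tbx1, a T-box transcription factor, was at 97.4, 105 and 97.1 CPM against 150, 190 and 191 (0.85 ± 0.10, adjusted p 0.00029). Tbx1 lies near the floxed Cldn5 on chromosome 16, at bases 18580979 to 18590671. Whether its change depends on that position was not tested. Il2rg, the shared chain of several cytokine receptors, was at 44.9, 44.2 and 40.7 CPM against 98.1, 59.6 and 59.3 (0.75 ± 0.13). Gimap6, Tbx1, Plxnd1 and Nid1 kept their call in every paired alternative run on them, whereas Gimap5, Gja1, Tgfb1, Cd93, Il2rg and Cx3cl1 lost it without the replicate 2 pair (adjusted p 0.355, 0.181, 0.146, 0.051, 0.0711 and 0.311).

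Genes that fell had smaller log2 differences. Socs3, an inhibitor of cytokine signalling, was at 50.2, 44.6 and 47.1 CPM in the controls and 27.6, 23.6 and 32.9 in iECKO (-0.70 ± 0.12, adjusted p 0.00617). Spock2, a matrix proteoglycan of barrier endothelium, was at 2642, 3164 and 2931 CPM against 1361, 2141 and 2046 (-0.65 ± 0.11). Ltbp4, which tethers latent TGF-β in the matrix, was at 622, 577 and 613 CPM against 316, 426 and 405 (-0.64 ± 0.11). In Spock2 and Ltbp4 iECKO 1 was the lowest library, and neither gene overlapped between groups. Itm2a, a membrane protein of brain endothelium, was at 5588, 4174 and 5064 CPM against 3238, 2909 and 3933 (-0.52 ± 0.11), and Cst3, the protease inhibitor cystatin C, at 1882, 1261 and 1460 against 999, 907 and 1113 (-0.56 ± 0.12). Syt7 (-0.66 ± 0.13), Dpp4 (-0.62 ± 0.13), Afap1l2 (-0.60 ± 0.12), Tln2 (-0.58 ± 0.12), Prickle1 (-0.56 ± 0.10), Srarp (-0.53 ± 0.12) and Flot1 (-0.52 ± 0.12) also fell. All 12 lost the call without the replicate 2 pair, where the adjusted p was between 0.0548 for Ltbp4 and 0.372 for Srarp, and all but Socs3, Ltbp4 and Prickle1 also without the replicate 1 pair.

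**Figure D3:**
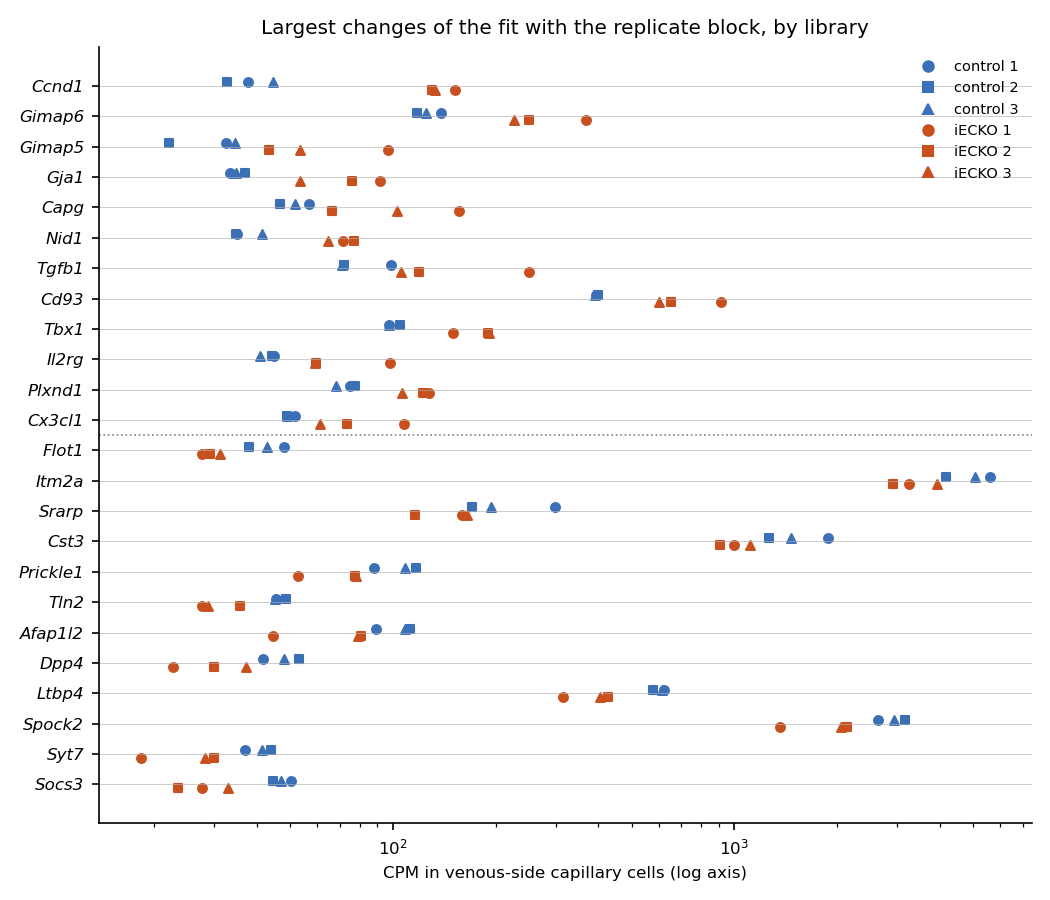
CPM in the members of the 24 genes with the largest paired changes among those whose log2 CPM averaged 5 or more and whose groups did not overlap, on a log axis, 1 point per library, rising genes above and falling genes below the line. The lack of overlap was a condition of the choice, Ccnd1 is the gene with the widest gap, and iECKO 1 is often the outermost library.

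Gene lists showed where the paired calls fell. These lists, here and in the zone comparisons, were chosen with earlier results of these data known. Their counts and medians are thus a description and do not test a theme. Of 22 tested genes of leukocyte adhesion and endothelial activation, 6 rose and 0 fell, with a median log2 difference of 0.50 against 0.01 over all genes. Nfkb2, a subunit of the NF-κB factors, was at 17.4, 24.7 and 15 CPM against 42.1, 37.4 and 28.9 (0.98 ± 0.14). Cx3cl1, the membrane-bound chemokine fractalkine, was at 51.5, 49.1 and 49.1 CPM against 108, 73.5 and 61.0 (0.69 ± 0.14). Pglyrp1, a peptidoglycan recognition protein, was at 1487, 767 and 895 CPM against 2935, 1307 and 1509 (0.87 ± 0.11), and Birc3, an NF-κB target that blocks cell death, at 12.4, 23.3 and 14.6 against 30.5, 33.3 and 19.4 (0.76 ± 0.17). In both of the last genes the groups overlapped and the change appeared within pairs.

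Of 21 genes of angiogenesis and tip cells, 10 rose and 0 fell (median 0.64). Besides Ccnd1 and Meox1 they included low-level genes: Kit, a receptor tyrosine kinase, at 0.485, 1.15 and 0.929 CPM against 14.2, 3.23 and 4.94 (3.00 ± 0.52), Prnd at 1.13, 1.34 and 1.73 against 5.16, 8.32 and 6.28 (2.20 ± 0.37), and Angpt2, the vessel-destabilising angiopoietin, at 3.39, 2.68 and 1.73 against 11.6, 10.2 and 6.41 (1.88 ± 0.29). None of the 3 overlapped between groups. Kit, Prnd and Angpt2 lost the call without the replicate 2 pair (adjusted p 0.051, 0.134 and 0.0502). Plxnd1, a semaphorin receptor, was at 75.0, 77.5 and 68.3 CPM against 128, 123 and 106 (0.72 ± 0.10, adjusted p 0.000757). Cells with an Apln or Plvap UMI had been removed by the rule, so this list was seen only in cells without those transcripts. Without that condition the controls held 817, 802 and 736 such cells, of which 801, 767 and 715 were members. The iECKO libraries held 446, 279 and 623, of which 402, 251 and 588 were members, so a larger part of the iECKO cells was removed. Odc1, the polyamine enzyme ornithine decarboxylase, was at 59.6, 49.9 and 54.4 CPM against 576, 217 and 102. Its groups did not overlap, but it did not pass (2.15 ± 0.71, adjusted p 0.482 paired), and its 3 iECKO libraries lay far apart.

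Of 23 matrix and basement membrane genes 6 rose and 1, Ltbp4, fell (median 0.22). Nid1, the basement membrane linker nidogen, was at 34.9, 34.6 and 41.4 CPM against 71.5, 77.2 and 64.8 (0.95 ± 0.12, adjusted p 0.000357). Itga6, a laminin-binding integrin chain, was at 600, 594 and 583 CPM against 975, 916 and 703 (0.57 ± 0.11), Col4a2, a collagen IV chain, at 280, 302 and 350 against 483, 471 and 388 (0.56 ± 0.12), and Timp3 at 363, 224 and 174 against 644, 342 and 289 (0.76 ± 0.09). Of 29 actin genes 4 rose and 0 fell (median 0.09): Capg, an actin-capping protein, at 56.9, 46.7 and 51.7 CPM against 156, 66.5 and 103 (1.06 ± 0.16), Rhoc (0.92 ± 0.12), Tpm4 (0.55 ± 0.12) and Myh9 (0.53 ± 0.11). Of 26 immediate-early genes Egr1 rose (0.64 ± 0.13) and Atf3 fell (-0.46 ± 0.10), and 18 had a negative difference (median -0.24).

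Of 17 junction genes outside the rule 0 passed in either direction (median 0.12), and Tjp1, the scaffold ZO-1, was at 773, 903 and 720 CPM against 589, 895 and 702 (-0.11 ± 0.11). Of 30 transporters outside the rule 2 rose and 2 fell (median -0.03), where 1.27% of all genes rose and 0.482% fell. Those that rose were Slc1a1, a glutamate transporter (0.61 ± 0.10), and Insr, the insulin receptor (0.54 ± 0.10). Those that fell were Tfrc, at 479, 632 and 496 CPM against 303, 476 and 389 (-0.44 ± 0.10), and Slc7a1, an arginine carrier, at 724, 700 and 739 against 579, 483 and 525 (-0.42 ± 0.10). Of 21 Wnt genes 0 passed (median -0.09), with Lef1 at 567, 600 and 638 CPM against 483, 596 and 478 (-0.19 ± 0.11). Of 14 MHC class I genes 0 passed (median 0.00), and H2-D1 was at 1166, 935 and 940 CPM against 1162, 786 and 1114. Of 27 interferon-induced genes only Bst2 passed, which fell (-0.49 ± 0.11). Of the zone lists, 1 of 19 venous genes rose (Flt4, 0.45 ± 0.10), 1 of 17 arterial genes rose (Notch4, 0.54 ± 0.11), and of 14 mid-capillary genes Ivns1abp rose (0.64 ± 0.10) and Spock2, Itm2a and Tfrc fell. Among the list genes described here, Nfkb2, Pglyrp1, Timp3 and Rhoc kept the call in every paired alternative, and Capg lost it without the replicate 3 pair (adjusted p 0.0532). Birc3, Itga6, Col4a2, Tpm4, Myh9, Egr1, Atf3, Bst2, Flt4, Notch4, Ivns1abp and the 4 transporters lost it without the replicate 2 pair, at adjusted p from 0.146 for Insr to 0.467 for Slc7a1.

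**Figure D4:**
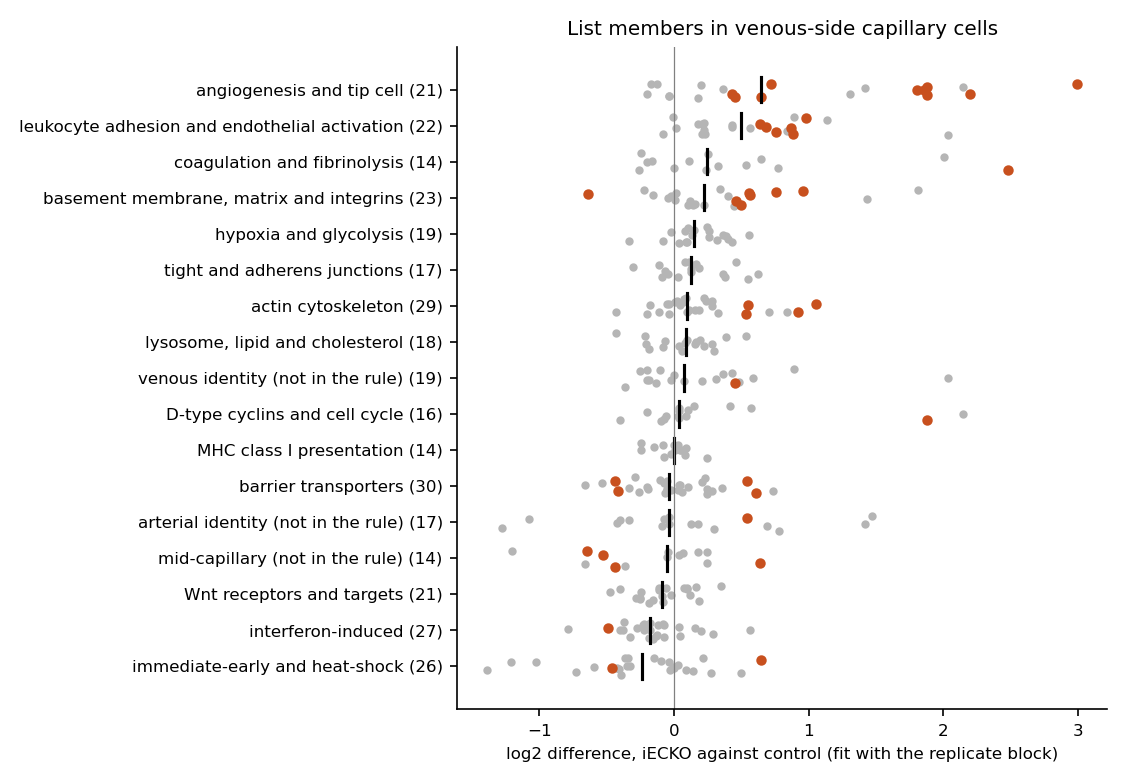
Log2 difference between iECKO and control in the members (paired fit) for the tested members of 17 gene lists, 1 point per gene, with orange points for genes past an adjusted p of 0.05 and a black bar for the list's median. The lists of angiogenesis and of leukocyte adhesion have the highest medians, 0.64 and 0.50, and the list of immediate-early genes the lowest, -0.24. The lists were chosen with earlier results of these data known, so the medians are a description.

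Whether the members responded like mid-capillary cells was tested directly, as the difference between the iECKO effects in both zones of the same libraries. Of 11583 genes, the log2 change was larger or less negative in the members for 11 (0.095%) and smaller or more negative for 32 (0.276%), with 994 at an unadjusted p under 0.05. Genes of leukocyte adhesion and endothelial activation had smaller or more negative log2 changes in the members, as these zones were cut. Of 22 such genes 0 were on the higher and 7 on the lower side (median -0.44, against 0.01 over all genes), and all 22 values were negative. The rules allowed at most 2 venular genes in the members and at most 1 in mid-capillary cells. Of these venular genes, Lrg1 and Ch25h are also activation genes, so cells that held more of them were left out. The venous-side markers that divide both zones stood lower in some iECKO libraries, so a zone may not hold like cells in both groups. The part of these limits in the difference was not tested. Icam1, the leukocyte adhesion molecule, was at 90.4, 143 and 58.1 CPM in control members and 154, 125 and 86.5 in iECKO members, which overlap. In mid-capillary cells it was at 26.2, 39.4 and 21.6 CPM in control and 84.4, 75.5 and 65.9 in iECKO, without overlap. The difference of the log2 changes was -1.04 ± 0.14 (edgeR adjusted p 0.000658). In either group the members' level lay above that of mid-capillary cells of the same library. Cx3cl1 went from 51.9, 48.3 and 47.9 CPM to 106, 72.8 and 59.8 in the members and from 67.8, 65.0 and 60.1 to 245, 152 and 125 in mid-capillary cells (-0.71 ± 0.10, adjusted p 0.000282). Ecscr, an endothelial surface protein of migrating cells, went from 128, 98.4 and 97.3 CPM to 186, 134 and 133 in the members and from 99.6, 76.5 and 80.4 to 276, 177 and 159 in mid-capillary cells (-0.72 ± 0.09, adjusted p 9.02e-05). Il2rg went from 45.2, 43.5 and 39.7 CPM to 97.0, 59.0 and 58.1 in the members and from 33.9, 32.6 and 26.6 to 134, 71.3 and 63.2 in mid-capillary cells (-0.74 ± 0.12, adjusted p 0.00183). Both genes rose more in mid-capillary cells and started lower there.

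H2-K1, an MHC class I heavy chain, stood at 988, 962 and 801 CPM in control members and 1059, 755 and 1051 in iECKO members, and at 737, 660 and 584 against 1074, 725 and 1065 in mid-capillary cells (-0.44 ± 0.07). Icam1, Cx3cl1, Ecscr, Il2rg and H2-K1 kept the call in all 7 alternatives, including cells of 2000 to 8000 UMIs only. Tnfaip3, an NF-κB feedback inhibitor (-1.01 ± 0.16), lost it without control 2 (adjusted p 0.0834), and Phlda1 (-1.18 ± 0.20) without control 1, control 2 or iECKO 2 and in that depth range. Cxcl10 (-2.33 ± 0.51), Cdk6 (-0.85 ± 0.18), Il1r1 (-0.69 ± 0.15), Rhoc (-0.65 ± 0.10), S100a10 (-0.58 ± 0.11), Plat (-0.43 ± 0.09), Cdc42ep3 (-0.42 ± 0.09), Tmsb4x (-0.36 ± 0.06), Sparc (-0.35 ± 0.07), Pglyrp1 (-0.33 ± 0.06) and H2-D1 (-0.31 ± 0.07) had smaller or more negative changes in the members and each lost the call in at least 2 alternatives. The total of 43 genes became 16, 14 and 26 without control 1, 2 and 3, 15 without iECKO 2 and 212 without iECKO 3.

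Genes on the other side differed less. Sema3c, a secreted semaphorin, was at 622, 765 and 608 CPM in control members and 401, 612 and 390 in iECKO members, against 772, 846 and 735 and 348, 508 and 381 in mid-capillary cells (0.44 ± 0.08). Glul was at 396, 427 and 442 CPM in control members and 331, 257 and 337 in iECKO members, against 798, 912 and 960 and 438, 398 and 608 in mid-capillary cells (0.47 ± 0.10). Both stood lower in iECKO in either zone and less so in the members. Jag2 (0.41 ± 0.09), Adamts1 (0.39 ± 0.08), Apold1 (0.38 ± 0.08) and Sparcl1 (0.31 ± 0.06) were on this side too, and all 6 lost the call in 4 or more of 7 alternatives.

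**Figure D5:**
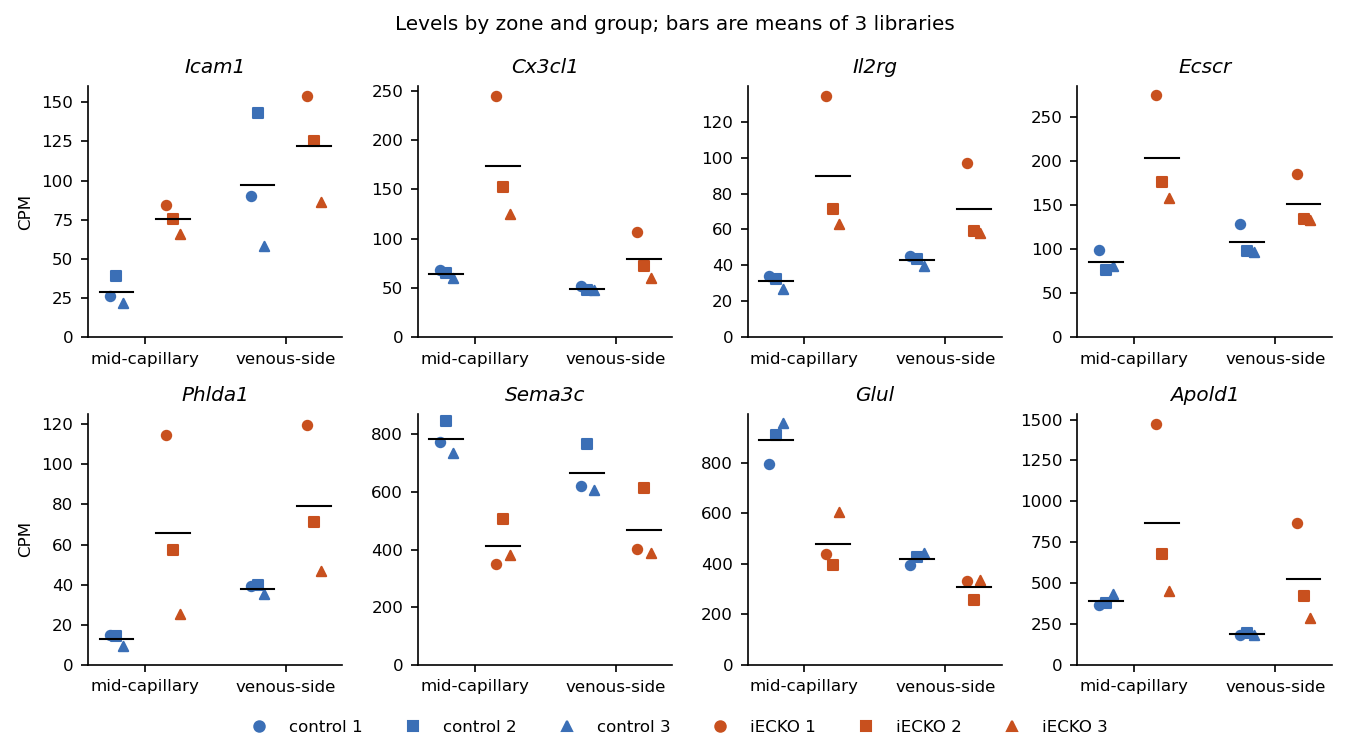
CPM of 8 genes in mid-capillary and venous-side cells of the 3 control (blue) and 3 iECKO (orange) libraries, 1 point per library, with bars for the means. For Icam1, Cx3cl1, Il2rg, Ecscr and Phlda1 the step from control to iECKO is larger in mid-capillary cells. For Sema3c and Glul the drop is larger there. Apold1 rises in both zones, with wide spread among iECKO libraries.

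Against venular cells fewer genes differed in their iECKO effect: of 11162, the change was larger or less negative in the members for 10 (0.0896%) and smaller or more negative for 3 (0.0269%), with 720 at an unadjusted p under 0.05. Apoe, the lipid carrier apolipoprotein E, was at 1100, 901 and 788 CPM in control members and 1060, 978 and 978 in iECKO members. In venular cells it was at 3011, 1934 and 1894 CPM and 1695, 1454 and 1772 (0.58 ± 0.09, adjusted p 0.00796). Cd93 was at 395, 392 and 382 CPM in control members and 904, 644 and 592 in iECKO members, against 550, 508 and 542 and 788, 640 and 656 in venular cells (0.48 ± 0.09). Its control level was higher in venular cells and the iECKO levels of both zones were alike. Fkbp5, a glucocorticoid-induced cochaperone (1.47 ± 0.23), Asb4 (1.22 ± 0.19), Ifi27l2a (0.85 ± 0.15, but -0.38 in cells of 2000 to 8000 UMIs), Odc1 (0.68 ± 0.12), Lap3 (0.68 ± 0.12), Cd9 (0.60 ± 0.11) and Rhoc (0.50 ± 0.10) were on the higher side and the heat-shock gene Hspa1b (-0.92 ± 0.13) on the lower. All 10 of these genes lost the call without control 1 and without control 3, where 2 calls were left in each case, and iECKO 3 left out gave 58. Venular cells were few, 103 in control 1 and 165 in iECKO 3.

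Within the iECKO libraries, members with 0 Cldn5 UMIs (19, 12 and 22 cells of at least 2000 UMIs) were compared with members that held at least 2 (369, 228 and 551). Of 8575 genes 0 were higher (0%) and 2 lower (0.0233%) in the cells without Cldn5 by edgeR, and 388 had an unadjusted p under 0.05. With DESeq2 there was 1 call. The total was 6, 1 and 25 without iECKO 1, 2 and 3. The cells without Cldn5 summed to 65909 to 141533 UMIs per library, so differences, large ones included, could be missed at this depth. The pair was Hbb-bt, a haemoglobin chain, at 12.2, 0 and 0 CPM in cells without Cldn5 and 662, 181 and 814 in the others, and Enpp2 at 30.6, 29.8 and 76.8 against 63.3, 62.4 and 620. They belong to the erythrocyte and the choroid plexus lists, and no other gene passed in either direction. Hbb-bt kept its call in 6 of 6 alternatives and Enpp2 in 2 of 6.

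The comparison of groups was repeated in members with at least 2 Cldn5 UMIs, which are in large part the same cells, so it is not independent. Of 11120 genes, edgeR called 3 higher (0.027%) and 0 lower (0%) without pairing, with 531 at an unadjusted p under 0.05. The paired fit called 141 higher (1.27%) and 53 lower (0.477%). Of the genes called higher, 133 were called in both sets (93.7% of the 142 in all members and 94.3% of the 141), and 48 of those called lower (88.9% of 54 and 90.6% of 53). Ccnd1 was at 39.3, 33.9 and 47.1 CPM in these control cells and 159, 137 and 138 in these iECKO cells (1.87 ± 0.12). Gimap6 was at 144, 123 and 132 CPM against 400, 265 and 232 (1.15 ± 0.12), Nid1 at 36.1, 35.9 and 43.6 against 78.1, 81.1 and 67.8 (0.97 ± 0.12), and Spock2 at 2738, 3288 and 3089 against 1466, 2271 and 2135 (-0.63 ± 0.11). Cldn5 itself was at 6213, 5378 and 6141 CPM against 4326, 3231 and 3758 (-0.63 ± 0.10). Differences in Ccnd1, Gimap6, Nid1 and Spock2 were thus present among cells in which Cldn5 transcript was detected. Without the replicate 1 or 2 pair the paired total of 194 became 43 and 70.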

How the data were processed

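Droplet single-cell RNA-seq of brain microvessels was measured in 3 control and 3 iECKO libraries. The files hold raw UMI counts per gene and barcode, deposited by the authors, from Cell Ranger 6.1.1, per the file headers. The submitters' processing notes name mm10 and Seurat without roles. No barcode had under 500 UMIs in any library. Of 32286 feature identifiers 32235 were found in the GRCm38 annotation used for coordinates.

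Members and zones were cut by the stated rule. No doublet caller was run. Of other cell types the gates limit only 6 mural and microglial genes, so doublets with other cells or of 2 endothelial cells can remain. Counts were summed per library and zone (members 2219548 to 6858402 UMIs per library) and fitted with edgeR 4.0.16 in R 4.3.3 (robust quasi-likelihood, TMM factors, filterByExpr). Tests were two-sided, with Benjamini-Hochberg adjustment over all genes at 0.05. SE is the log2 difference divided by the root of F. TMM factors scale all CPM but those of Xist and of the marker lists of other cell types. Fits across zones had the library as a block. Genes of the rule and Cldn5 were left out of all counts of calls. DESeq2 1.42.0 was an alternative. Shares were tested by permutation of libraries, and their intervals and the limits that a count of 0 allows cover counting error only. Microglia were barcodes within the same UMI and mitochondrial limits, with at least 4 microglial genes and fewer than 2 of the endothelial genes of the rule.

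Libraries with the same replicate number deviated together from their group means (r of 0.256, 0.234 and 0.300 over 11232 genes, log2 CPM with a prior count of 2). All other control and iECKO pairs were negative (-0.222 to -0.0312), which centring favours. The numbers were taken to pair the libraries. The unpaired fit was the main one.

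Genes were named by a rule: the 12 largest changes each way past the threshold with mean log2 CPM of at least 5 and no overlap between groups (for zones, the same sign in every library), the 5 largest in interactions and within subsets of members, and at most 4 members each way per list past the threshold plus up to 3 of the highest level. As the unpaired fit named under 5 genes, the rule was applied to the paired fit. Predicted and sex-linked genes were counted, not named, and a few other genes the rule takes are not reported here. Members and lists were chosen with earlier results of these data known. Some of the fits were tested on simulated data drawn from 1 mean per gene, without library or pair effects. Seeded changes of log2 1 and 2 were recovered in 64% and 99% by the unpaired fit of groups. The paired fit recovered 77% and 99%, and the fit without against with Cldn5 12% and 65%. Because pair effects were absent, this does not test the pairing. Alternatives were DESeq2, RLE factors, no filter on low counts, other cell filters, other thinning depths, the replicate block and each library left out.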

Additional observations from a re-analysis of the deposited data

Results flagged for a closer look

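The iECKO effect in the members differed from that in mid-capillary cells, by the test of the difference itself, in 10 named genes. The log2 change was larger or less negative in the members for Glul (0.47), Sema3c (0.44), Jag2 (0.41), Adamts1 (0.39) and Apold1 (0.38). It was smaller in the members for Phlda1 (-1.18), Icam1 (-1.04), Il2rg (-0.74), Ecscr (-0.72) and Cx3cl1 (-0.71). Against venular cells the difference was positive for Fkbp5 (1.47), Asb4 (1.22), Ifi27l2a (0.85, but -0.38 in cells of 2000 to 8000 UMIs), Odc1 (0.68) and Lap3 (0.68) and negative for Hspa1b (-0.92). Fkbp5 was at 21.9, 4.14 and 2.59 CPM in control members and 69.1, 14.2 and 3.93 in iECKO members, and at 108, 21.4 and 15.5 and 116, 22.1 and 14.1 in venular cells, so its level followed the replicate number in both zones. Of these 16 genes, Icam1, Il2rg, Ecscr and Cx3cl1 kept the call in all 7 alternatives. The members were chosen by venous-side markers that stood lower in some iECKO libraries. The part of that in these differences was not tested.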

How the results depend on the processing

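Calls between groups in all members depended on pairing. The 3 unpaired calls became 36 with DESeq2, 26 without a filter on low counts, 6 with at most 5% mitochondrial UMIs or with Apln and Plvap cells kept, 5 with at most 10000 UMIs, 12 with at least 2 markers, 11 with equal numbers of members, 196 with the replicate block, and 1 to 12 with 1 library left out. The 196 paired calls became 109 with DESeq2 and the block, 3 with no replicate block, 320 with at most 5% mitochondrial UMIs, 327 with Apln and Plvap cells kept, and 47 to 318 with 1 pair left out. In members that held Cldn5, the 3 unpaired calls became 38 with DESeq2, 194 with the block and 1 to 12 with 1 library left out, and the 194 paired calls became 3 with no replicate block and 43 to 260 with 1 pair left out. With the block the exact p went from 0.1 to 0.25 for the share without Cldn5 and from 0.2 to 0.25 for the share the rule takes, 0.25 being the lowest 3 pairs allow.

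The 43 differences from mid-capillary cells became 12 in cells of 2000 to 8000 UMIs and 14 to 212 with 1 library left out, and the 13 from venular cells 2 to 58. In that depth range the difference for Ifi27l2a turned to -0.38 (adjusted p 0.994). The zone calls in controls, 1239 against mid-capillary cells, became 2404 with all cells, 413 with DESeq2 and 717 to 1057 with 1 library left out. Against venular cells 771 became 3106 with all cells and 264 with DESeq2, and, with all cells and control 1, 2 or 3 left out (an alternative chosen after seeing the data), 3124, 2343 and 2546. The 2 calls between members without and with Cldn5 became 1 with at least 5 UMIs as the gate, 1 with DESeq2 and 1 to 25 with 1 library left out. The difference in the share without Cldn5 was 12.7 points at 1000 UMIs, 4.50 at 4000, 4.34 unthinned, 11.5 in members of 2000 to 8000 UMIs and 6.54 to 7.54 with 1 library left out. The share the rule takes differed by -8.30 points (exact p 0.1, unadjusted) with at least 2 markers and by -4.44 to -1.94 with 1 library left out. Of the values of single genes, 1131 kept direction and side of the threshold, 309 lost the call, and 1 gained it. The causes were not tested. Paired alternatives other than the block itself were chosen after seeing the data. The cells without Cldn5 summed to 65909 to 141533 UMIs per library, which limits what that comparison can show.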
